A study of Mus with 2 samples.

Results

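The helix-loop-helix (HLH) genes Id1, Id2 and Id3, the E protein genes Tcf3, Tcf4 and Tcf12, and the basic HLH (bHLH) genes Tal1 and Lyl1 were examined in single hematopoietic stem cells (HSCs) sorted from mouse bone marrow. These 8 genes were chosen by symbol and all 8 were found, once each, in the count tables. HSCs were sorted as LSK FLT3- CD150+ CD48- cells (lineage-negative, Sca-1+, c-Kit+, and negative or positive for 3 further surface proteins) from tibias and fibulas of Mx1-Cre Id2+/+ and Mx1-Cre Id2Δ/Δ mice aged 8 to 12 weeks. In each group 1000 cells from 5 pooled mice were loaded on the 10x Genomics Chromium, in which a unique molecular identifier (UMI) marks each captured RNA molecule, giving 1 library per genotype. Mice of both groups carried Mx1-Cre, a recombinase driven by an interferon-responsive promoter, and received pIpC, a synthetic double-stranded RNA that induces it, before HSCs were purified, per the study's methods. Cre can thus act in any interferon-responsive cell, and the floxed Id2 allele loses its first exons and keeps the last. The labels of the Id2Δ/Δ sample name Id2+/+ bones in 1 clause, while its title and genotype field give the deletion.

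Id proteins carry an HLH domain but no DNA-binding basic region. They pair with E proteins, and an E protein held by an Id protein cannot bind DNA. E proteins bind E-box motifs as pairs with each other or with tissue-restricted bHLH proteins such as TAL1 and LYL1, which join LMO2, LDB1 and GATA factors in a complex that stem cells, megakaryocytes and erythroid cells use. E proteins are best known in marrow for driving lymphoid genes, and ID2 for its part in natural killer and dendritic cells.

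The Id2+/+ library held 8612217 UMIs and the Id2Δ/Δ library 17140713. Of 333 and 625 cells kept after a mitochondrial limit, 44 and 169 were erythroid-like and 27 and 38 neutrophil-like, all outside the sorted phenotype. The other 262 and 418 cells are called retained cells. Among these, 173 and 182 were named HSC-like and 78 and 126 platelet-biased HSC-like, and no cluster earned the name activated HSC. The remaining 11 and 110 retained cells were left unnamed, so this class takes a far larger part of the retained cells in Id2Δ/Δ. Its first cluster held 1 Id2+/+ and 65 Id2Δ/Δ cells, with Lgals3, Vpreb3, Ly6c2, Tyrobp and Lyz2 among its leading genes. The other held 10 and 45 cells and was led by cell-cycle genes such as Ccnb2 and Cenpa. Of the retained cells 84 and 232 were taken as female and 93 and 90 as male (female: Xist but no Y-linked gene read, male: the other way round). The libraries stood apart: the HSC-like cells came from 1 cluster in Id2+/+ and from other clusters in Id2Δ/Δ, so that within this class genotype, library and cluster cannot be told apart. The same holds for the platelet-biased class, of which 1 cluster held 75 Id2+/+ and 0 Id2Δ/Δ cells and the others 3 against 67 and 0 against 59. The first of these others was led by cell-cycle genes beside Pf4 and Gp1bb. Top2a, a gene of dividing cells, stood at 104 and 211 CPM in platelet-biased, 16.7 and 29.0 in HSC-like and 299 and 331 in erythroid-like cells of the Id2+/+ and Id2Δ/Δ libraries, and the part of cycling in differences between classes was not tested. With other clustering or cell calls the HSC-like class held between 63 and 202 Id2+/+ cells and between 44 and 182 Id2Δ/Δ cells. Retained cells do not depend on how HSCs are split, but they mix the classes, unnamed cells included, in unlike parts. What this mix adds to the ratios between genotypes was not tested. Only 1 cell barcode was shared between the libraries. All 12 erythroid markers were read in erythroid-like cells and all 12 neutrophil markers in neutrophil-like cells of both libraries. In the neutrophil-like cells the monocyte or dendritic markers summed to 4.33 and 4.27 CPM (counts-per-million, the UMIs of a gene scaled to the summed UMIs of the same cells), and 6 of 7 NK or T cell markers were at 0. The exception was Nkg7, at 1897 and 2326 CPM against 102 and 123 in retained cells. Erythroid-like cells also split by library, with clusters of 27 Id2+/+ against 0 Id2Δ/Δ cells, 0 against 80, 8 against 76 and 9 against 13. Their 12 erythroid markers summed to 68822 and 34446 CPM. The part of these differences in ratios between genotypes was not tested. Intervals are at 95% and cover counting error alone. Each genotype is a single library, so no test was run and differences between genotypes have no replicate check.

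Id2, the deleted gene (ENSMUSG00000020644, chromosome 12, 25093799 to 25096092 in mm10), was read most often in a cell class that the sort was not meant to include. In Id2+/+ neutrophil-like cells it stood at 62.8 CPM (42.1 to 90.2), from 29 UMIs in 15 of 27 cells. The level was 13.2 CPM (7.38 to 21.7) in HSC-like cells, where 14 of 173 had a UMI (7 UMIs in 68 male and 1 in 47 female cells), and 5.69 CPM (1.85 to 13.3) in platelet-biased cells. A single UMI in 44 erythroid-like cells gave 0.714 CPM (0.0181 to 3.98). Neutrophil-like cells thus carried 4.77 times (2.47 to 9.56) the HSC-like level, and no single cell supplied more than 5 of their 29 UMIs. Elane stood above Camp in 26 of these 27 cells, which held 28 of the 29 UMIs, and in 35 of 38 Id2Δ/Δ cells of the class. Values of this class are therefore not read as those of mature neutrophils. The HSC-like and platelet-biased intervals overlapped, with a ratio of 0.432 (0.123 to 1.25). In the empty droplets of the same library, which hold free RNA, Id2 was at 8.28 CPM (5.70 to 11.6), so that only the neutrophil-like interval lay wholly above it. Free RNA, scaled by its haemoglobin content, accounted for 0.191 of the 29 neutrophil-like UMIs and 1.22 of the 15 HSC-like UMIs.

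In the Id2Δ/Δ library no Id2 UMI was found in any of 625 cells. Against a floor of 3 counts over the class, Id2 was at least 14.7-fold lower in neutrophil-like, 6.66-fold lower in HSC-like and 3.83-fold lower in platelet-biased cells, and at least 16.2-fold lower in retained cells. These bounds leave out the counting error of the Id2+/+ value, which in platelet-biased cells is 5 UMIs. Female retained cells held 2 Id2 UMIs in 84 Id2+/+ and 0 in 232 Id2Δ/Δ cells. The upper limit of that ratio was 1.57, so no loss can be read from female cells alone. Male retained cells held 9 in 93 and 0 in 90 cells, with an upper limit of 0.358. The HSC-like bound depends on how many cells are in the class. On the log2 scale it moved from -2.74 to -0.71 in male cells and to -0.45, short of 1.5-fold, with genes scaled over both libraries before clustering, a setting chosen after seeing the data that left 44 Id2Δ/Δ HSC-like cells. With 0 of 38 neutrophil-like cells, a share of cells with a UMI of up to 9.25% is still allowed. The absence therefore covered cells beyond the stem cell gate, including the class in which the gene was highest. The empty droplets of this library also held 0 Id2 UMIs. Over all its barcodes 4 Id2 UMIs were found, against 99 in Id2+/+, and these 4 lay in barcodes of over 100 UMIs that were not called cells. The last exon stays in the deleted allele and the part of a transcript that was read is not given in the sources used here, so a count of 0 is no direct check of which exons were lost.

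Id1 (chromosome 2, 152736251 to 152737410), the family member most closely tied to BMP signals, was rare in stem cells of both libraries. In HSC-like cells it stood at 2.64 CPM (0.543 to 7.70) in Id2+/+ and 3.96 (1.45 to 8.61) in Id2Δ/Δ. Platelet-biased cells held 6.83 CPM (2.51 to 14.9) and 11.9 (7.62 to 17.7). Neutrophil-like cells held 10.8 CPM (3.52 to 25.3) and 18.5 (9.86 to 31.7). The log2 ratio between the libraries in neutrophil-like cells, 0.77, ranged from -0.25 to 0.86 over the alternatives. The order HSC-like, platelet-biased, neutrophil-like was the same in both libraries, but within Id2+/+ all 3 intervals overlapped and the first step turned direction when each library was clustered on its own, at -1.46 on the log2 scale. In Id2Δ/Δ both ratios to HSC-like cells had intervals above 1, at 3.01 (1.2 to 8.99) for platelet-biased and 4.68 (1.66 to 15) for neutrophil-like cells. Over the alternatives the log2 values ranged from 0.57 to 2.51 for the first, which fell short of 2-fold at resolution 1.2, and from 1.18 to 3.05 for the second. Of the 5 Id2+/+ neutrophil-like UMIs, 4 came from 1 cell, whereas the 13 Id2Δ/Δ UMIs came from 10 of 38 cells. Erythroid-like cells were nearly empty of Id1, with 0 UMIs in Id2+/+ and 2 in 169 Id2Δ/Δ cells.

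Over all retained cells Id1 stood at 4.22 CPM (1.93 to 8.01) in Id2+/+ and 8.70 (6.25 to 11.8) in Id2Δ/Δ. The ratio of 2.06 had an interval of 0.988 to 4.83, which includes 1. When cells were thinned to 6200 UMIs each, 2.13% (0.623 to 5.72) of Id2+/+ and 4.38% (2.58 to 6.75) of Id2Δ/Δ retained cells had an Id1 UMI, compared with 3.05% and 8.13% before thinning. Thinning left out 86 of 262 Id2+/+ but 2 of 418 Id2Δ/Δ retained cells, so the thinned shares describe unlike subsets. The shares before thinning carry a difference in depth, with a median of 7081 UMIs per cell against 9663. Female cells gave a ratio of 1.68 (0.485 to 8.93), and male cells 1.41 (0.378 to 6.41). Neither interval excluded 1. In erythroid-like cells, which have few Id1 transcripts, the thinned share was 0% and 0.119%.

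Id3 (chromosome 4, 136143822 to 136145392), which acts beside Id2 in lymphoid cells, was close to absent. Retained cells held 6 UMIs in Id2+/+ and 2 in Id2Δ/Δ, or 2.81 CPM (1.03 to 6.12) and 0.425 (0.0514 to 1.53), a ratio of 0.151 (0.0149 to 0.844). On the log2 scale this value of -2.73 turned to 0.086 when barcodes with fewer UMIs were taken as cells. Over all barcodes Id3 had 14 UMIs in Id2+/+ and 29 in Id2Δ/Δ, of which 3 and 21 lay in barcodes between the empty droplets and the called cells, so no difference between genotypes is read from Id3. Of the 6, 3 lay in 1 cell of an unnamed cluster that also held 27 UMIs of Dntt, 21 of Vpreb1, 16 of Igll1, 14 of Ebf1 and 11 of Cd79a, all genes of early B cells. Without the 2 Id2+/+ cells that had at least 10 Dntt UMIs, a selection made after their values were seen, Id3 stood at 3 and 2 UMIs, with a ratio of 0.300 (0.0251 to 2.62). The level in empty droplets was 1.25 CPM and 1.30 CPM, within the interval of the HSC-like and platelet-biased cells of Id2+/+. With 1 UMI in all neutrophil-like cells and 0 in all erythroid-like cells of both libraries, no difference between the 4 named classes was detectable at this depth.

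**Figure D1:**
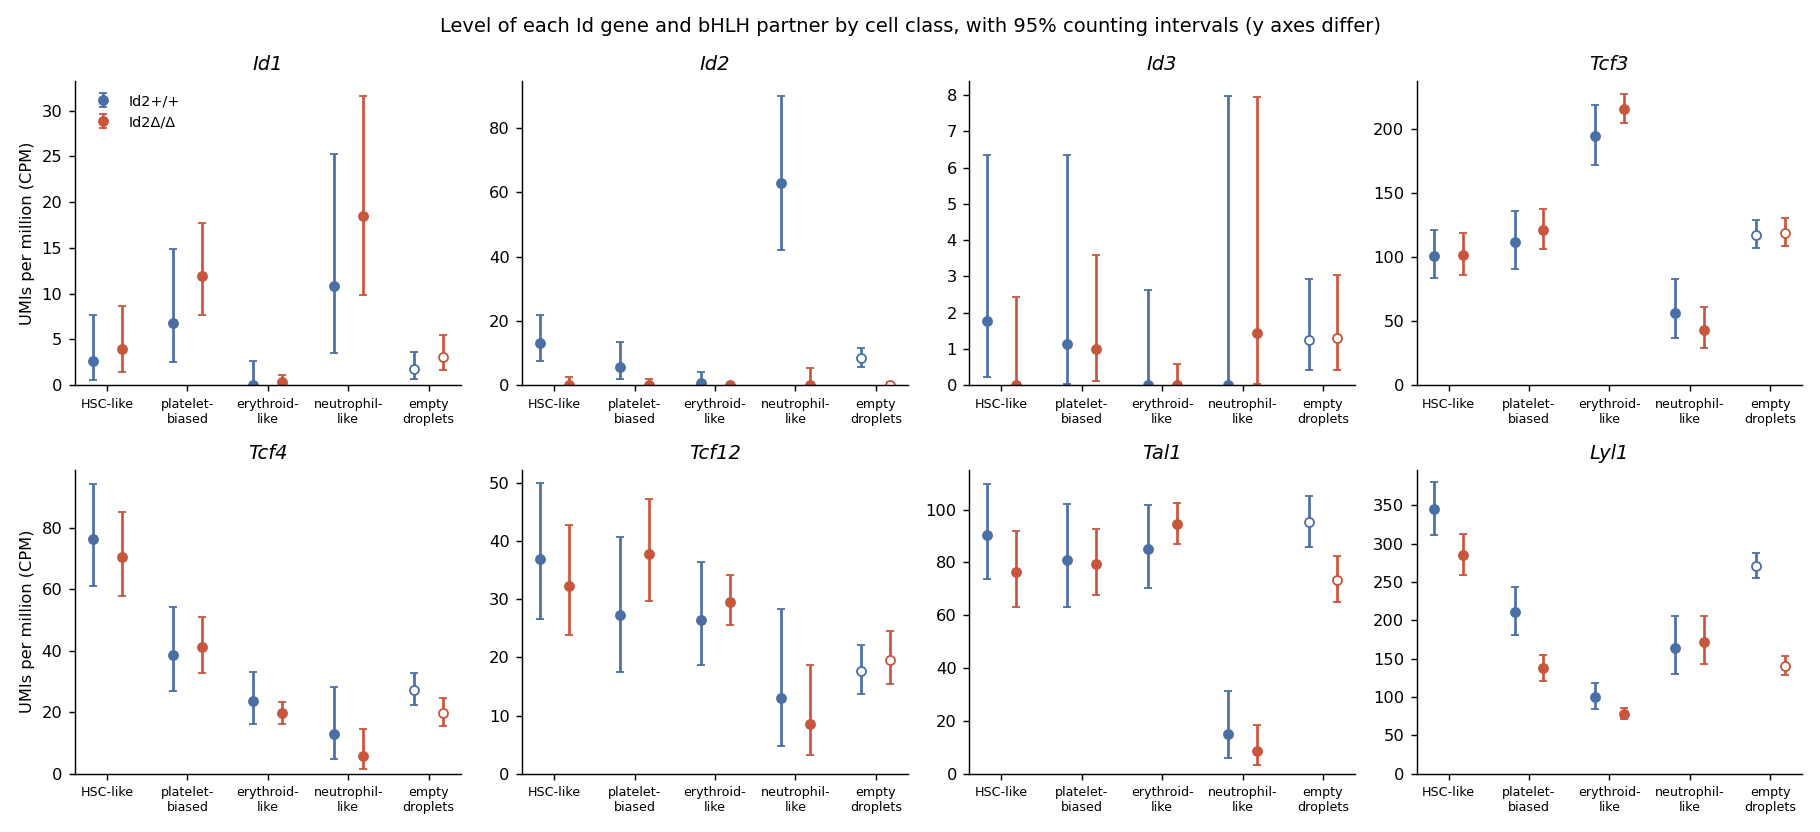
Level of each of the 8 genes (y axis, CPM, a separate scale for each gene) in 4 cell classes and in empty droplets (open points) of the Id2+/+ (blue) and Id2Δ/Δ (red) libraries, with 95% counting intervals. Id2 reached 62.8 CPM in Id2+/+ neutrophil-like cells and was at 0 in all Id2Δ/Δ classes, Tcf3 was highest in erythroid-like cells, and of these classes Tcf4 and Lyl1 were highest in HSC-like cells of both libraries.

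In HSC-like, platelet-biased and erythroid-like cells each of the E protein genes was read more often than any Id gene, and the 3 differed in where they were read. Neutrophil-like cells of Id2+/+ differed from this, with 34 Id UMIs beside 38 E protein UMIs, and in those of Id2Δ/Δ the 13 Id1 UMIs exceeded the 4 of Tcf4 and the 6 of Tcf12. Tcf3 (E2A, chromosome 10, 80409541 to 80433976) was the most abundant by UMIs, which count molecules whatever their length. It stood at 101 CPM (83.4 to 121) and 102 (86.2 to 119) in HSC-like cells, and at 112 (90.6 to 136) and 121 (106 to 137) in platelet-biased cells of the Id2+/+ and Id2Δ/Δ libraries. Erythroid-like cells held 194 CPM (172 to 219) and 216 (205 to 227), and neutrophil-like cells 56.3 (36.8 to 82.5) and 42.7 (28.8 to 61.0). The order was thus neutrophil-like, HSC-like, platelet-biased, erythroid-like in both libraries, with no separation between HSC-like and platelet-biased cells. Erythroid-like over HSC-like, Tcf3 was 1.92 times (1.54 to 2.41) as high in Id2+/+ and 2.12 times (1.80 to 2.53) in Id2Δ/Δ.

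Tcf4 (E2-2, ENSMUSG00000053477) showed the reverse order for stem and erythroid cells. Of the 4 named classes it was highest in HSC-like cells, at 76.4 CPM (61.2 to 94.3) in Id2+/+ and 70.6 (57.8 to 85.3) in Id2Δ/Δ. The 11 unnamed retained cells of Id2+/+ held 111 CPM (59.1 to 190). Platelet-biased cells held 38.7 (26.8 to 54.1) and 41.1 (32.8 to 51.0). Erythroid-like cells held 23.6 (16.2 to 33.1) and 19.6 (16.3 to 23.4), and neutrophil-like cells 13 (4.77 to 28.3) and 5.70 (1.55 to 14.6). Each step down from HSC-like cells had a ratio interval below 1 in both libraries, with 0.507 and 0.583 for platelet-biased, 0.308 and 0.278 for erythroid-like and 0.170 and 0.0807 for neutrophil-like cells. The Tcf4 level in erythroid-like cells was close to that of the empty droplets, at 27.1 and 19.8 CPM. In the erythroid-like cells free RNA accounted for 1.02 of 33 and 2.04 of 126 Tcf4 UMIs.

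Tcf12 (HEB, chromosome 9, 71844252 to 72111893) was the least abundant E protein gene in HSC-like cells. Its 6 values in HSC-like, platelet-biased and erythroid-like cells lay between 26.4 and 37.7 CPM, and the platelet-biased and erythroid-like ratios to HSC-like cells all had intervals that included 1. Erythroid-like over HSC-like in Id2Δ/Δ, the ratio was 0.915 (0.666 to 1.28), and TMM scaling (trimmed means, described with Tal1) turned its log2 value from -0.13 to 0.36. With genes scaled over both libraries before clustering, an alternative chosen after seeing the data, which left 44 Id2Δ/Δ HSC-like cells, this ratio passed 2-fold, and platelet-biased over HSC-like the log2 value was 1.23 in place of 0.22. In Id2+/+ the platelet-biased log2 value, -0.43, lay the other way and ranged from -1.14, past 2-fold lower, to -0.32 over 8 alternatives. In neutrophil-like cells 6 UMIs in each library gave 13 CPM (4.77 to 28.3) and 8.55 (3.14 to 18.6), or 0.352 (0.122 to 0.832) and 0.264 (0.0926 to 0.618) of the HSC-like level.

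The makeup of the E protein pool differed between HSC-like, platelet-biased and erythroid-like cells in both libraries. Tcf3 supplied 47.1% (40.7 to 53.6) and 49.7% (44.0 to 55.4) of E protein UMIs in HSC-like cells, 62.8% (54.7 to 70.4) and 60.5% (55.6 to 65.3) in platelet-biased cells and 79.5% (74.9 to 83.7) and 81.4% (79.5 to 83.3) in erythroid-like cells. The 3 classes did not overlap in their intervals in either library. Tcf4 supplied 35.7% (29.6 to 42.0) and 34.5% (29.2 to 40.1) of the pool in HSC-like cells but 9.65% (6.74 to 13.3) and 7.40% (6.2 to 8.75) in erythroid-like cells. Summed over the 3 genes, the pool stood at 214 CPM (188 to 243) and 204 (182 to 229) in HSC-like cells and at 244 (219 to 272) and 265 (253 to 278) in erythroid-like cells. Neutrophil-like cells had the smallest pool, at 82.3 CPM (58.2 to 113) and 57.0 (40.7 to 77.6).

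Id transcripts were set against this pool as the share of Id1, Id2 and Id3 among all Id and E protein UMIs, a ratio of transcripts and not of proteins. In Id2+/+ cells it was 7.58% (4.69 to 11.5) in HSC-like, 7.14% (3.75 to 12.1) in platelet-biased, 0.292% (0.00738 to 1.61) in erythroid-like and 47.2% (35.3 to 59.3) in neutrophil-like cells. In Id2Δ/Δ cells the shares were 1.90% (0.7 to 4.09), 6.06% (4 to 8.75), 0.117% (0.0142 to 0.423) and 25.9% (15 to 39.7). Of the 20 Id2+/+ HSC-like Id UMIs 15 were Id2, the deleted gene, and without Id2 the HSC-like shares were 2.01% (0.655 to 4.62) in Id2+/+ and 1.90% (0.7 to 4.09) in Id2Δ/Δ. Without Id2 the platelet-biased shares were 4.29% (1.74 to 8.65) and 6.06% (4 to 8.75), and the neutrophil-like share was lower in Id2+/+, at 11.6% (3.89 to 25.1), than in Id2Δ/Δ, at 25.9% (15 to 39.7), with intervals that overlapped. Id1 supplied 24 of the 26 Id UMIs left in Id2Δ/Δ platelet-biased cells. In erythroid-like cells of both libraries almost no Id transcript accompanied the largest E protein pool of the 4 named classes, with 1 Id UMI beside 342 E protein UMIs in Id2+/+ and 2 beside 1702 in Id2Δ/Δ.

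**Figure D2:**
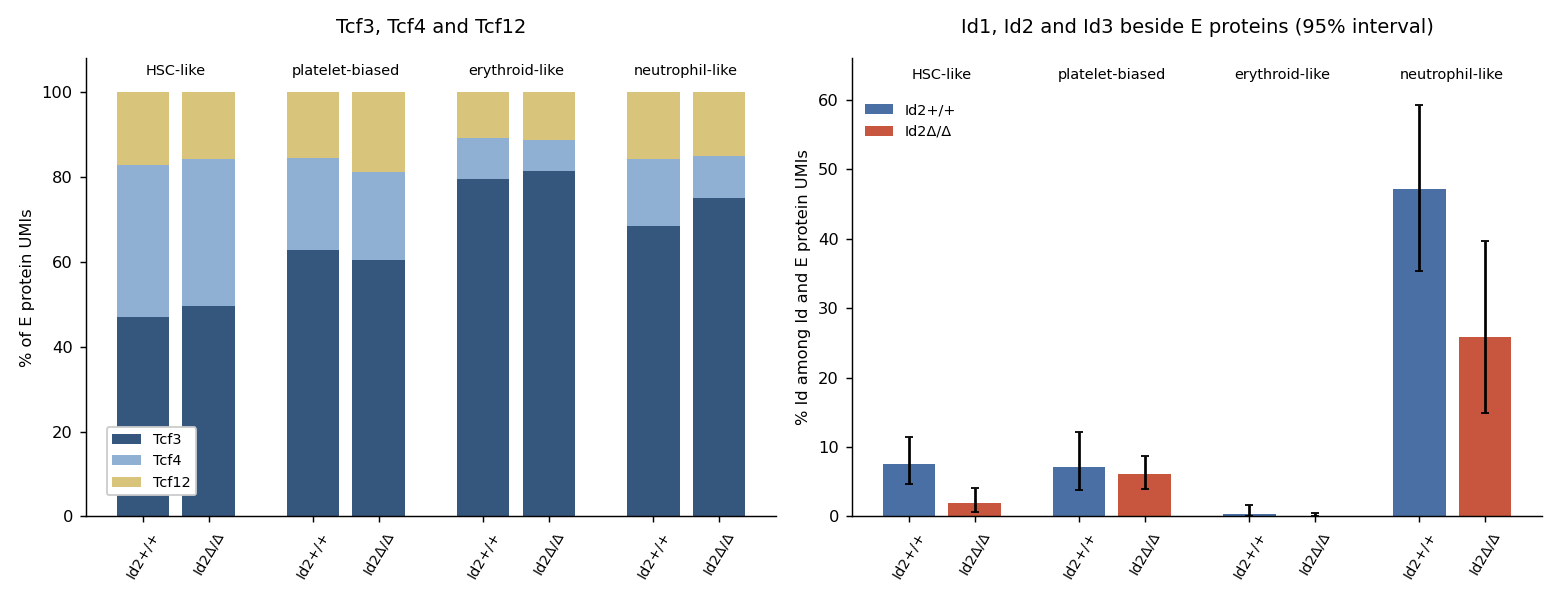
Left, share of Tcf3, Tcf4 and Tcf12 in the summed E protein UMIs (y axis, %) of 4 cell classes in both libraries. Right, Id1, Id2 and Id3 UMIs as a percentage of Id and E protein UMIs, with 95% intervals. Tcf3 rises from 47.1% and 49.7% in HSC-like to 79.5% and 81.4% in erythroid-like cells, and the Id share is largest in neutrophil-like cells, at 47.2% and 25.9%.

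Tal1 (SCL, chromosome 4, 115056426 to 115071755), required for blood stem cell specification and for erythroid and megakaryocytic maturation, stood between 76.5 and 94.5 CPM in HSC-like, platelet-biased and erythroid-like cells of both libraries. HSC-like cells held 90.5 CPM (73.9 to 110) in Id2+/+ and 76.5 (63.2 to 91.8) in Id2Δ/Δ, platelet-biased cells 80.9 (63.2 to 102) and 79.3 (67.5 to 92.6), and erythroid-like cells 85.0 (70.4 to 102) and 94.5 (87.1 to 102). Erythroid-like over HSC-like cells, the ratio was 0.939 (0.716 to 1.24) in Id2+/+ and 1.24 (1.01 to 1.52) in Id2Δ/Δ, where the interval lay above 1. With trimmed-mean (TMM) scaling these became 0.31 and 0.79 on the log2 scale, so that the Id2+/+ direction depends on the scaling. Neutrophil-like cells stood apart, with Tal1 at 15.2 CPM (6.09 to 31.2) and 8.55 (3.14 to 18.6), or 0.168 (0.0657 to 0.358) and 0.112 (0.0402 to 0.251) of the HSC-like level. Free RNA accounted for 2.19 of their 7 UMIs in Id2+/+ and 1.70 of 6 in Id2Δ/Δ.

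Lyl1 (chromosome 8, 84701423 to 84704716), the closest relative of Tal1, was the most abundant of the 8 genes in HSC-like cells and showed a different order. It stood at 345 CPM (312 to 381) in Id2+/+ and 285 (259 to 313) in Id2Δ/Δ HSC-like cells, and at 211 (181 to 243) and 137 (122 to 154) in platelet-biased cells. Erythroid-like cells held 100 CPM (84.1 to 118) and 78.0 (71.3 to 85.1), and neutrophil-like cells 165 (130 to 206) and 172 (143 to 206). Erythroid-like cells thus held 0.290 (0.237 to 0.352) and 0.274 (0.240 to 0.312) of the HSC-like level. The neutrophil-like cells, where Tal1 was low, held 0.477 (0.368 to 0.611) and 0.605 (0.490 to 0.742) of the HSC-like Lyl1. The balance of the pair thus differed between classes. In HSC-like cells Lyl1 exceeded Tal1 by 393 to 103 UMIs in Id2+/+ and by 432 to 116 in Id2Δ/Δ. In erythroid-like cells it was 140 to 119 in Id2+/+, whereas in Id2Δ/Δ Tal1 exceeded Lyl1 by 607 to 501. Lyl1 overlaps the end of the neighbouring gene Nfix by a few bases in RefSeq, and use of strand in the counting is not given in the sources used here.

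In cells thinned to 6200 UMIs, Lyl1 was found in 89.3% (80.7 to 94.6) of Id2+/+ and 82.2% (75.8 to 87.5) of Id2Δ/Δ HSC-like cells, and in 43.7% (27.7 to 59.0) and 34.7% (27.4 to 42.2) of erythroid-like cells. Tcf3 was found in 44.3% and 46.2% of HSC-like cells and in 63.5% and 69.9% of erythroid-like cells. Tal1 was found in between 36.4% and 43.0% of cells in each stem, platelet-biased and erythroid-like class of both libraries, and in 9.81% and 4.47% of neutrophil-like cells. Thinning left out 82 of 173 Id2+/+ HSC-like cells and 2 of 182 in Id2Δ/Δ, so the first of these shares describes the deeper cells. At least 1 E protein UMI together with a Tal1 or Lyl1 UMI was found in 72.5% (62.2 to 81.4) and 67.8% (60.4 to 74.5) of HSC-like cells, 56.0% and 54.0% of platelet-biased cells, 38.1% and 50.6% of erythroid-like cells, and 22.2% (8.62 to 42.3) and 15.8% (6.02 to 31.3) of neutrophil-like cells. Free RNA made up 13.0% and 7.32% of the UMIs of HSC-like cells, 2.68% and 1.60% in erythroid-like and 4.99% and 3.30% in neutrophil-like cells, and its part in these shares was not tested. Before thinning, 77 of 173 Id2+/+ HSC-like cells held Tcf3 and Lyl1 together, and 38 held Tcf3 and Tal1.

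**Figure D3:**
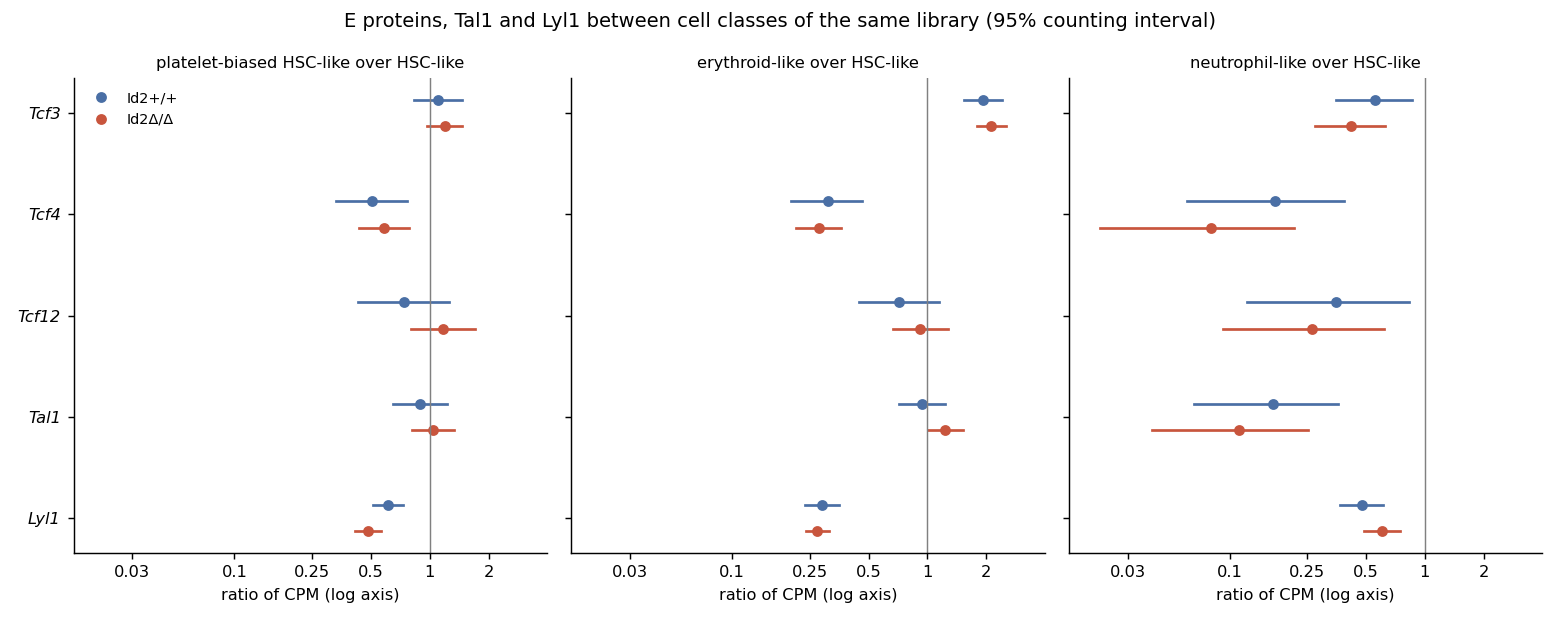
Ratio of CPM (x axis, log scale) of platelet-biased, erythroid-like and neutrophil-like cells over HSC-like cells of the same library, for the 5 genes with enough UMIs, with 95% counting intervals (Id2+/+ blue, Id2Δ/Δ red). Tcf4 and Lyl1 lie below 1 in all 3 panels, and the Tcf3 interval lies above 1 only in erythroid-like cells, at 1.92 and 2.12.

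The contrasts between classes were read against all genes with at least 20 UMIs. Erythroid-like over HSC-like, 0 of 5 members with enough UMIs were at least 2-fold higher in Id2+/+ and 1 of 5, Tcf3, in Id2Δ/Δ, while 12.3% and 14.6% of all genes were. Tcf4 and Lyl1 were at least 2-fold lower in both libraries, as were 30% and 30.2% of all genes. Neutrophil-like over HSC-like, Id2 was the 1 of 6 members at least 2-fold higher in Id2+/+ (7.73% of all genes). Tcf4, Tcf12, Tal1 and Lyl1 were at least 2-fold lower in Id2+/+ (31.4% of all genes), and Tcf3, Tcf4, Tcf12 and Tal1 in Id2Δ/Δ (32.6%), where none was higher (8.02%). Platelet-biased over HSC-like, Id2 was lower in Id2+/+ (9.05%) with none higher (4.93%), and in Id2Δ/Δ Id1 was higher (6.59%) and Lyl1 lower (10.8%). The platelet-biased counts changed with clustering and scaling. The median gene stood at -0.30 and -0.28 on the log2 scale in erythroid-like over HSC-like cells and at -0.42 and -0.47 in neutrophil-like over HSC-like cells. TMM scaling raised all erythroid-like log2 ratios by 0.40 and 0.49 and all neutrophil-like ones by 0.33 and 0.38, which placed Tcf3 past 2-fold in erythroid-like cells of both libraries. In neutrophil-like cells it left 3 of the 4 genes at least 2-fold lower in each library, as Lyl1 in Id2+/+ went from -1.07 to -0.74 and Tcf3 in Id2Δ/Δ from -1.25 to -0.87.

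Between genotypes, the E protein genes and Tal1 showed no difference beyond counting error in retained cells. Tcf3 stood at 109 CPM in Id2+/+ and 111 in Id2Δ/Δ, a ratio of 1.02 (0.873 to 1.2). Tcf4 stood at 62.8 and 56.0 CPM, a ratio of 0.892 (0.722 to 1.11), and Tcf12 at 34.2 and 34.4 CPM, a ratio of 1.01 (0.758 to 1.34). For Tal1 the levels were 86.2 and 75.8 CPM, a ratio of 0.879 (0.734 to 1.06). These intervals bound any change of the 4 genes between the libraries from 0.722 to 1.34 times in retained cells as far as counting error goes. With the erythroid-like and neutrophil-like cells added, Tcf3 was at 1.23 (1.12 to 1.36) and Tcf4 at 0.769 (0.641 to 0.925), intervals that leave out 1. Erythroid-like cells, with more Tcf3 and less Tcf4 than HSC-like cells, made up 13.2% of Id2+/+ but 27.0% of Id2Δ/Δ cells. The part of this mix in the Tcf3 and Tcf4 values was not tested. In HSC-like, platelet-biased, erythroid-like and neutrophil-like cells taken one at a time, all 16 ratios of the 4 genes had intervals that included 1 as reported. Some of these moved by over 1.5-fold with the choice of cells. On the log2 scale Tcf12 in HSC-like cells went from -0.19 to -1.40 with genes scaled over both libraries, and in neutrophil-like cells taken as male Tcf3 went from -0.40 to -1.83 and Tal1 from -0.83 to -2.25. Tcf12 in platelet-biased cells, at 0.46, passed 1.5-fold upward in 3 of 10 alternatives, up to 0.87. Only Id1 of 7 members with enough UMIs was at least 1.5-fold higher, where 3.87% of 10465 genes were, and only Id2 was at least 1.5-fold lower, where 13.2% were. The Id1 interval included 1, and 11 of its 41 Id2Δ/Δ UMIs lay in unnamed cells. By class, no member passed 1.5-fold of 5 tested in HSC-like cells (5.58% of all genes higher and 12.5% lower) or of 5 in erythroid-like cells (6.48% and 10.9%). In platelet-biased cells Id1 was higher and Lyl1 lower of 6 tested (7.41% and 13.3%), the Id1 ratio of 1.74 (0.693 to 5.21) resting on 6 and 24 UMIs, and in neutrophil-like cells Id2 was lower and none higher of 3 tested (12.7% and 8.49%). The platelet-biased Id1 log2 value of 0.80 ranged from 0.39 to 2.58 and passed 1.5-fold in 9 of 10 alternatives. With TMM scaling the split of all genes past 1.5-fold moved from 405 higher and 1385 lower to 626 and 1024, and the log2 ratio of every gene rose by 0.11.

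Lyl1 was the exception among the partners. It was lower in Id2Δ/Δ retained cells, at 217 CPM (203 to 230) against 281 (259 to 304), a ratio of 0.771 (0.697 to 0.855). Markers moved beside it in the same cells. The 10 HSC markers, all read in both libraries, summed to 926 CPM in Id2+/+ and 706 in Id2Δ/Δ retained cells, and the 11 platelet-biased markers to 1461 and 2206. In HSC-like cells the HSC markers summed to 1207 and 1053 CPM and in platelet-biased cells to 608 and 480. Their part in the Lyl1 ratio was not tested. By class the ratio was 0.825 (0.718 to 0.948) in HSC-like, 0.652 (0.539 to 0.789) in platelet-biased, 0.780 (0.645 to 0.948) in erythroid-like and 1.05 (0.780 to 1.41) in neutrophil-like cells. The HSC-like, platelet-biased and erythroid-like cells came largely from unlike clusters in the 2 libraries. In the unnamed retained cells the Lyl1 ratio lay the other way, at 1.47 (0.948 to 2.42) from 21 and 311 UMIs. As reported, the difference reached 1.5-fold in platelet-biased cells alone, at -0.62 on the log2 scale, and this was lost with TMM scaling, at -0.54. It passed 1.5-fold in 3 of 10 alternatives, which ranged from -1.24 to -0.17. The retained ratio was 0.790 (0.653 to 0.957) in male cells and 0.875 (0.743 to 1.03) in female cells. Free RNA moved the same way, with Lyl1 at 271 CPM in Id2+/+ and 141 in Id2Δ/Δ empty droplets, a ratio of 0.519 (0.467 to 0.576). After subtraction of free RNA the retained levels were 282 and 221 CPM. Whether the difference exceeds what separates 2 libraries of the same genotype was not tested.

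**Figure D4:**
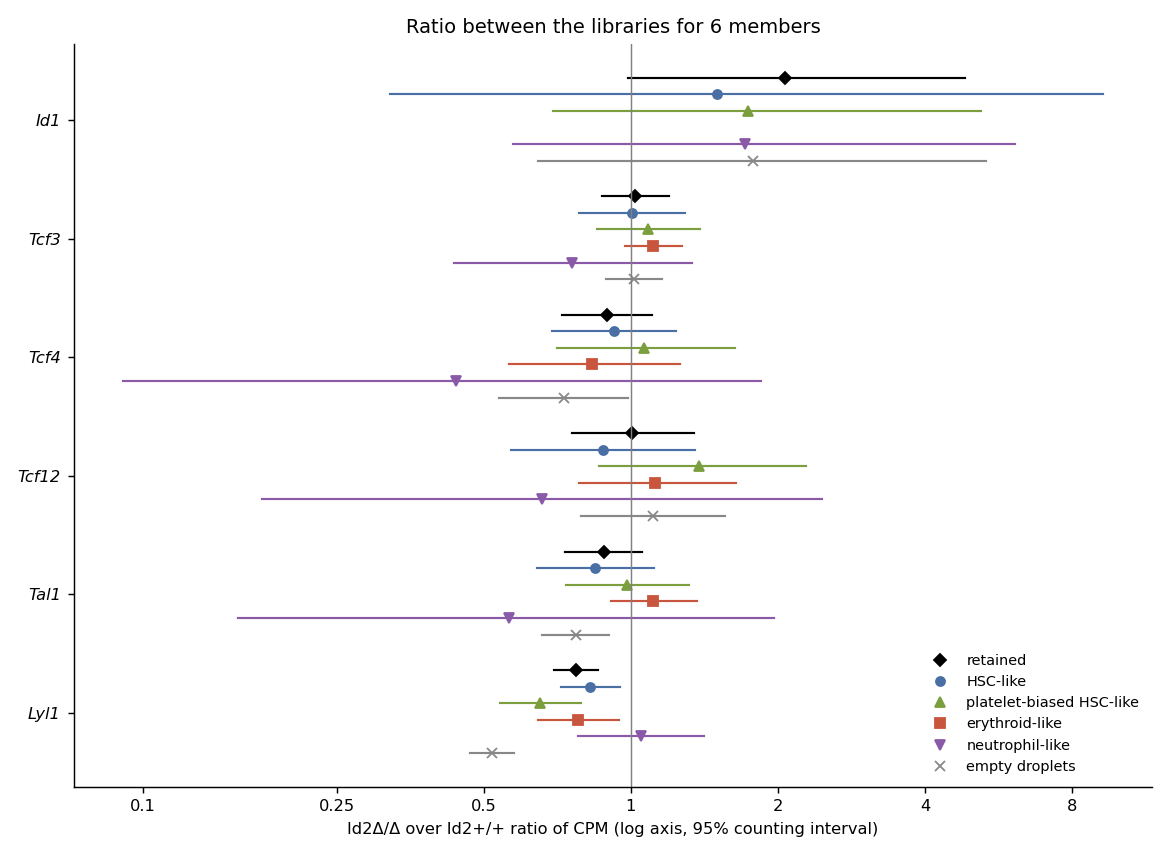
Ratio of CPM of Id2Δ/Δ over Id2+/+ (x axis, log scale) with 95% counting intervals for 6 genes in retained cells (all cells but the erythroid-like and neutrophil-like), in 4 classes and in empty droplets. Points with under 5 UMIs in all, and Id2 and Id3, are not drawn; Lyl1 lies below 1 in retained, HSC-like, platelet-biased and erythroid-like cells, and the intervals of Tcf3, Tcf12 and Tal1 cross 1 in all cell classes.

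For each gene the 3 genes with the most similar pattern were taken by Pearson correlation of log2(CPM + 10) over the 10 sums of class and library, among 7800 genes with at least 20 CPM in 1 class. Sums of one library share its depth, and classes share free RNA, so these are descriptions. Tcf3 was followed most closely by Ctbp1, a corepressor gene, at r = 0.99, then by Slc25a3 and Sept8. Tcf4 was followed by Rsf1, Zfp451 and Nub1, with r from 0.98 to 0.99, and Tcf12 by Tlk2, Usp9x and Acss2, with r of 0.97. Nearest to Tal1 were Tmem9, Pdlim1 and Rpl5, at 0.98 to 0.99, and nearest to Lyl1 were Pik3ip1, Oaz2 and Pnpla2, at 0.97 to 0.98. Pik3ip1, an inhibitor of PI3 kinase signalling, stood at 164 and 135 CPM in HSC-like and at 5 and 2.34 in erythroid-like cells. Id2, at 0 in 1 library, gave weaker matches in Uso1 (0.93), Apba3 (0.92) and Slc39a7 (0.89). The neighbours of Id3, namely Cd79a, Lef1 and Arpp21, rest on the single early B cell described above. Id1 did not reach 20 CPM in any class, and its nearest genes were Mlec, Itgb2 and Capzb. Among the members themselves, Tcf4 and Tcf12 (r = 0.90), Tcf12 and Tal1 (0.87), and Tcf3 and Tal1 (0.87) were closest, while Id1 and Tcf3 lay farthest apart (-0.84).

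The wider network was examined as 5 gene lists in retained cells. The first holds 10 factors that form the TAL1 complex or act beside it in blood stem cells, and all 10 had enough UMIs. Only Cbfa2t3 (ETO2), the corepressor of the complex, passed 1.5-fold, lower in Id2Δ/Δ at 110 CPM (101 to 120) against 168 (151 to 186), a ratio of 0.655 (0.572 to 0.752). This is 1 of 10 where 13.2% of all genes were lower, and with TMM scaling the ratio was 0.706 (0.615 to 0.810), short of 1.5-fold. Lmo2, the bridging protein and the most abundant of the list, stood at 1075 CPM (1032 to 1120) and 867 (840 to 894), a ratio of 0.806 (0.766 to 0.849). The median log2 ratio of the list was -0.37, compared with -0.09 over all genes. In empty droplets Cbfa2t3 stood at 59.0 CPM in Id2+/+ and 25.5 in Id2Δ/Δ, and the part of free RNA in its ratio was not tested.

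Of 16 BMP and TGF-beta signalling genes, the pathway that induces Id genes in many cell types, 12 had enough UMIs. Smad7 and Bmpr2 were at least 1.5-fold lower and none was higher, beside 13.2% and 3.87% of all genes. Smad7, an inhibitory SMAD that TGF-beta itself induces, stood at 23.4 CPM (17.4 to 30.9) and 7.01 (4.82 to 9.84), a ratio of 0.299 (0.187 to 0.473). The Id2+/+ UMIs were spread over 38 cells with at most 4 in 1 cell. Bmpr2, a type II BMP receptor, stood at 14.1 CPM (9.49 to 20.1) and 6.79 (4.65 to 9.59), a ratio of 0.483 (0.284 to 0.823). Tgfb1, a ligand and the most abundant member, stood at 353 CPM (328 to 379) and 415 (397 to 434), a ratio of 1.18 (1.08 to 1.28). The median of the list was -0.20. Bmpr1a, the type I receptor gene, and Smad9 had 0 UMIs in the retained cells of both libraries.

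Genes that need E proteins in lymphoid cells, with Cdkn1a as a cell-cycle target, formed the third list, and 5 of 10 had enough UMIs. Flt3, Dntt, Notch1 and Ebf1 were at least 1.5-fold lower in Id2Δ/Δ (13.2% of all genes) and none was higher (3.87%). The Dntt value rested on few cells. Its 59 Id2+/+ UMIs against 0 in Id2Δ/Δ made it at least 43.4-fold lower against a floor of 3 counts, with an exact upper limit of 0.0292 for the ratio. Yet 27 and 29 of the 59 lay in 1 cell each. Without these 2 cells 3 UMIs remained, so that Dntt could no longer be compared. Ebf1, a B lineage factor, kept its direction without them, at 23 UMIs against 10, a ratio of 0.196 (0.0831 to 0.427), as did Notch1 at 0.405 (0.202 to 0.806) and Flt3 at 0.605 (0.374 to 0.987). In that setting Cdkn1a passed 1.5-fold upward, at 4 and 17 UMIs, with a ratio of 1.91 (0.624 to 7.81). With all retained cells and TMM scaling, Flt3 was at 0.655 (0.405 to 1.07), which includes 1, Notch1 at 0.418 and Ebf1 at 0.128. In Id2+/+ Ebf1 stood at 11.4 CPM in HSC-like, 9.11 in platelet-biased, 10.0 in erythroid-like and 19.5 in neutrophil-like cells. Its empty droplets held 9.53 CPM and those of Id2Δ/Δ 6.24, and the part of free RNA in the Ebf1 ratio was not tested. Flt3 had the most UMIs of the list over both libraries, at 15 CPM (10.3 to 21.2) and 9.13 (6.61 to 12.3), although Dntt at 27.7 and Ebf1 at 17.8 CPM were higher in Id2+/+. FLT3 protein was a criterion of the sort. All 16 Igll1 UMIs of the Id2+/+ retained cells came from the early B cell.

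Most other HLH genes had too few UMIs to be compared. Of 13, only Hes6, Tcf15 and Bhlhe40 had enough UMIs, and none passed 1.5-fold. Hes6, the most abundant, stood at 61.9 CPM (51.8 to 73.4) and 63.5 (56.5 to 71.1). Id4, the remaining family member, had 0 UMIs in Id2+/+ and 1 in Id2Δ/Δ retained cells. Among 10 cofactors of E proteins and TAL1, 9 had enough UMIs, and Cbfa2t2, a relative of Cbfa2t3, passed 1.5-fold, lower at 13 CPM (9.91 to 16.6) against 20.2 (14.6 to 27.1), a ratio of 0.643 (0.428 to 0.973). With TMM scaling this was 0.692 (0.461 to 1.05), short of 1.5-fold, and 13.2% of all genes were lower. The histone deacetylase gene Hdac2 was the most abundant, at 150 CPM (134 to 168) and 168 (157 to 180). Their medians were -0.06 and -0.08, close to the -0.09 of all genes.

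**Figure D5:**
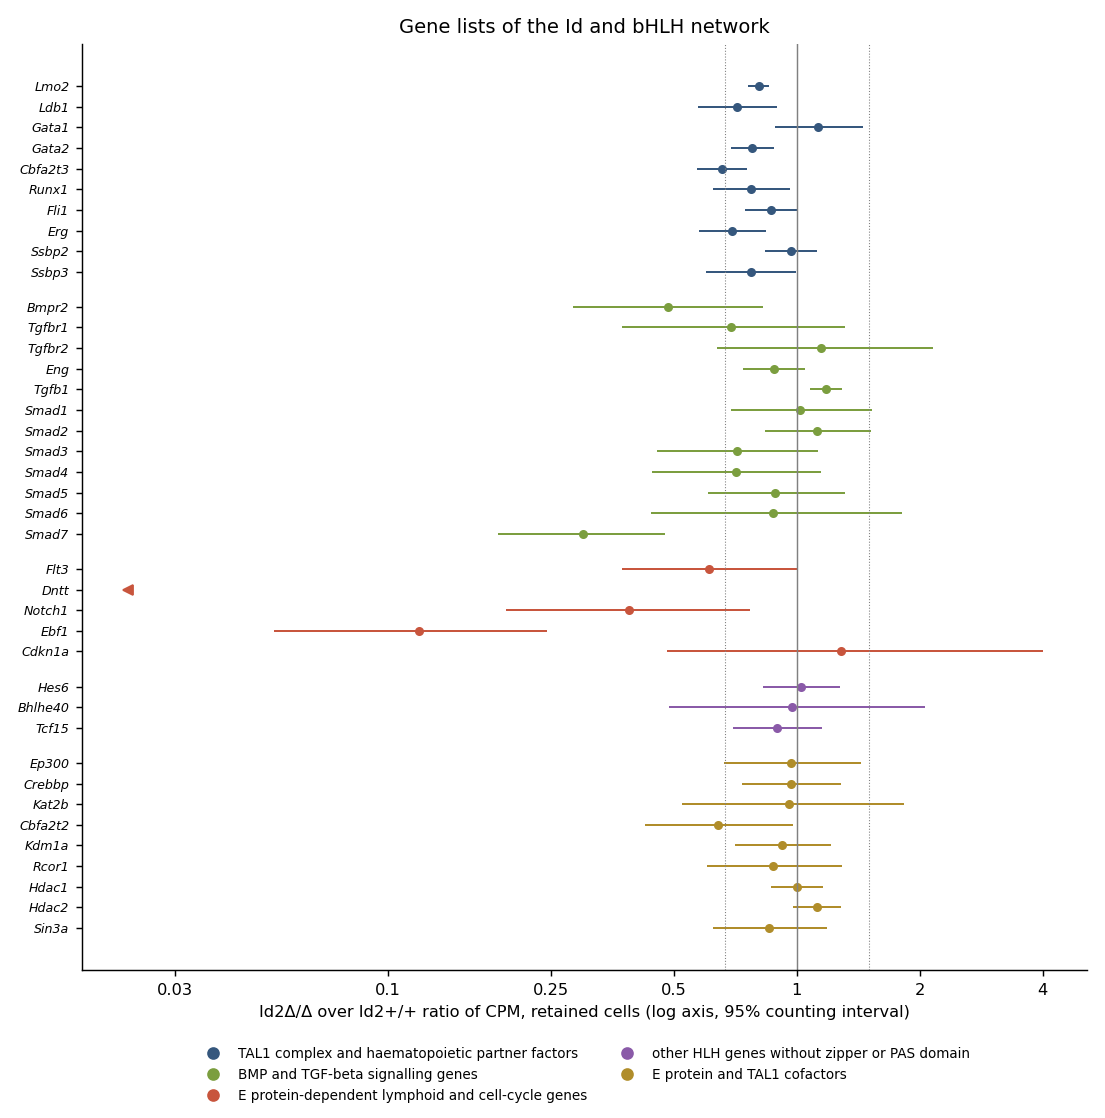
Ratio of CPM of Id2Δ/Δ over Id2+/+ in retained cells (x axis, log scale) with 95% counting intervals for the genes of 5 lists that had at least 20 UMIs. Dotted lines mark 1.5-fold, and the arrow for Dntt, with 0 UMIs in Id2Δ/Δ, stands at the ratio that 3 counts would give; Smad7 at 0.299 and Ebf1 at 0.119 lie farthest to the left of the genes with UMIs in both libraries.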

How the data were processed

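The authors deposited 1 matrix of raw UMI counts per library, covering 737280 barcodes, with no normalization, and every column was used. Per the submitters' processing notes, Cell Ranger 2.2.0 and mm10 were used. Gene positions and overlaps come from RefSeq for GRCm38.p6, the same build as mm10. The members and gene lists were chosen with earlier results of these data known.

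Cells were barcodes reaching 10% of a reference depth, namely the 99th percentile of UMIs among the 1000 deepest, provided that under 10% of their UMIs were mitochondrial. Barcodes with 1 to 100 UMIs served as empty droplets. The labels give 383 and 686 analyzed cells, and 349 and 632 barcodes were called here. Both libraries were clustered together with scanpy 1.11.5 (log of counts per 10000, 2000 variable genes without the 8 members, 20 components, Leiden at resolution 1). Clusters with at least 4 markers of another cell type past a log2 fold of 1 in 25% of cells were set aside, and retained cells were clustered again at resolution 0.8. A class name needed at least 3 of its markers past a log2 fold of 0.5 in 10% of cells. No doublets were removed in the reported values.

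Sums of UMIs per class and library gave CPM. Exact Poisson limits were set for CPM, exact conditional limits for ratios and Clopper-Pearson limits for shares, all at 95%. Folds against a count of 0 use 3 counts over the class. A ratio was read as past a limit at 1.5-fold between genotypes or 2-fold between classes, for genes with at least 20 UMIs over both groups. No p-value is given. Samples were grouped by title and genotype label. Thinned shares are means of 20 draws at 6200 UMIs, the 10th percentile of depth rounded down to a multiple of 100. Values for pairs of genes in the same cell come from 1 draw. Free RNA per cell was estimated from the haemoglobin UMIs of retained cells and the empty-droplet profile. TMM factors came from edgeR 4.0.16, with no count model. On counts simulated from the retained cells, with 200 of 10465 genes changed 2-fold, the simulated ratio fell inside the interval for 96.2% of genes, and among the changed genes 89.5% had an interval without 1. These counts were Poisson draws from 1 pooled profile, so coverage near 95% followed from the design. Clumping of UMIs in single cells and differences between libraries were not simulated, so this says nothing about either. Alternatives covered scaling, the count filter, cell calls, mitochondrial and doublet filters, free RNA, sex, clustering and thinning.

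All 8 members are named, with the genes of each list past 1.5-fold, its gene with the most UMIs and the 3 genes most like each member. Other genes of the lists were named after their values were seen.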

Additional observations from a re-analysis of the deposited data

How the results depend on the processing

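With 1 library per genotype no replicate could be left out, and the depth limits Id1, Id2 and Id3 most. No paired analysis was possible because there are no replicate numbers, only a single library of each genotype. In retained cells Id1 kept a positive log2 ratio (0.43 to 1.15) and Lyl1 a negative one (-0.56 to -0.19) under all 17 alternatives. Lyl1 stood at -0.19 in female cells and, with all called cells, Lyl1 was at -0.56, Tcf3 at 0.30, Tcf4 at -0.38 and Tal1 at 0.079. The setting with all called cells adds the erythroid-like cells, 13.2% of Id2+/+ and 27.0% of Id2Δ/Δ cells. In male cells Tcf3 was at -0.20 and Id2 at -2.09, the latter against the floor. Id3 turned to 0.086 with a fixed minimum of 1000 UMIs and of genes per cell, and the cause was not tested. Without a count filter 2055 genes were at least 1.5-fold higher and 3430 lower in Id2Δ/Δ, and TMM scaling gave 626 higher.

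In erythroid-like over HSC-like cells, Tcf4 and Lyl1 stayed at least 2-fold lower in all alternatives of both libraries (-1.29 or below on the log2 scale). Tcf3 stood between 0.80 and 1.35 in Id2+/+ and between 1.04 and 1.58 in Id2Δ/Δ. The number of members at least 2-fold higher in Id2+/+ became 1 with TMM scaling, separate clustering, genes scaled within each library or resolution 1.2. With genes scaled over both libraries, an alternative chosen after seeing the data, it became 2 in Id2Δ/Δ erythroid-like cells, and in neutrophil-like cells of that library the number lower became 2. The platelet-biased counts were the least stable. In Id2+/+ the number lower was 4 with separate clustering, 2 with free RNA subtracted, genes scaled within each library or resolution 1.2, and 0 with the mean of CPM over cells or genes scaled over both libraries. In Id2Δ/Δ the number higher was 0 at resolution 1.2 and 2 with genes scaled over both libraries. The number lower there was 0 with TMM scaling, the mean of CPM or separate clustering, and 2 with genes scaled within each library or over both. Without the cells with at least 10 Dntt UMIs, also chosen after seeing the data, 1 of the genes that need E proteins was higher. In the gene lists, TMM scaling, there an alternative added after seeing the data, left 0 lower among the TAL1 complex factors and 0 among the cofactors.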
